A study of Mus musculus with 12 samples.

Results

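The 44 genes described here encode proteins that carry a cell through mitosis, from the kinases that start it to the machinery that cuts the daughter cells apart. They were taken as a list of gene symbols that was chosen with earlier results of these data known. All 44 were found, by Ensembl identifier, among the 49315 genes of a table of RNA-seq read counts for 12 mouse libraries in 4 groups of 3. By role they comprise 8 kinases, cyclins and regulators of mitotic entry, 5 genes of chromosome structure, 6 of the centrosome and spindle, 3 of the chromosomal passenger complex, 8 of the centromere and kinetochore, 4 of the spindle checkpoint, 3 of anaphase promotion and 7 of the central spindle and cytokinesis.

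All cells came from C57BL/6 mice. ILC2s, group 2 innate lymphoid cells, are lymphocytes of tissues that lack antigen receptors and make type 2 cytokines, and eosinophils are granulocytes of type 2 immunity. Lung ILC2s were depleted of lineage-positive cells with beads and sorted, grown in IL-33, IL-25, IL-2 and IL-7, kept for 48 h in IL-2 and IL-7, and washed. Blood eosinophils were what remained after removal of B220- and CD90-positive cells with beads, and they spent 24 h in IL-33 before washing. The groups were ILC2s with eosinophils, ILC2s alone, eosinophils with ILC2s and eosinophils alone, each for a further 24 h without added cytokines, and cocultured cells were then separated by flow cytometry. Every ILC2 had therefore been expanded with cytokines and every eosinophil had met IL-33. Nothing in the labels states that the 3 libraries of a group were separate cultures or animals, and the p-values reflect only how these libraries varied, which may be technical.

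Entry into mitosis turns on cyclin-dependent kinase 1 bound to cyclin A or B, which CDC25 phosphatases free from inhibitory phosphates. Chromosomes then condense, microtubules attach to kinetochores, and the spindle checkpoint holds back the anaphase-promoting complex until every kinetochore is attached. Most of these genes are repressed in resting cells and transcribed late in the cell cycle. A short promoter element, the cell cycle genes homology region (CHR), is bound by the MuvB core, which represses in quiescence as part of DREAM and activates with B-MYB and FOXM1 in dividing cells. CCAAT boxes upstream of it are bound by NF-Y. ILC2s divide in response to cytokines such as IL-33 and IL-2, whereas mature eosinophils are end-stage cells made by dividing precursors in bone marrow.

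Promoters are shown because most of these genes moved together in ILC2s while their levels in eosinophils differed widely. Each line runs 5′ to 3′ on the gene's strand, from 100 bases before to 25 after the start, from the RefSeq promoter table on GRCm38.p6 (mm10). Capitals mark CHR elements (TTTGAA, reverse complement TTCAAA, or the palindrome TTTAAA) and CCAAT boxes (reverse complement ATTGG). The first 4 hold both. Bub1 and Nuf2, which rose 18.3-fold and 14.0-fold in ILC2s, hold no match to TTTGAA or TTTAAA on either strand, and Nuf2 no CCAAT box either. Other forms of the element were not searched. The last 3, Kif23, Espl1 and Cenpa, hold both and belong to genes that eosinophils kept at a measurable level. Their places are chr9:70421530-70421654 (minus strand) for Ccnb2, chr10:69352888-69353012 (minus) for Cdk1, chr11:99024165-99024289 (minus) for Top2a, chr4:118437319-118437443 (minus) for Cdc20, chr2:127831835-127831959 (minus) for Bub1, chr1:169531440-169531564 (minus) for Nuf2, chr9:61946775-61946899 (minus) for Kif23, chr15:102296193-102296317 (plus) for Espl1 and chr5:30666786-30666910 (plus) for Cenpa.
Ccnb2: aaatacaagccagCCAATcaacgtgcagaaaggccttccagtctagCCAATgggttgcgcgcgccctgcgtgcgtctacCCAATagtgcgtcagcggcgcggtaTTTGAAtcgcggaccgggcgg
Cdk1: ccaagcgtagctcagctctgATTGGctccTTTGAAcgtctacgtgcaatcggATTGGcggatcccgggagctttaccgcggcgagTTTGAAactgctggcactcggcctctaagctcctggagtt
Top2a: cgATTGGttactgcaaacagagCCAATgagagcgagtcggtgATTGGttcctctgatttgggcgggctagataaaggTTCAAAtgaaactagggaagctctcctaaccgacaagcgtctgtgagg
Cdc20: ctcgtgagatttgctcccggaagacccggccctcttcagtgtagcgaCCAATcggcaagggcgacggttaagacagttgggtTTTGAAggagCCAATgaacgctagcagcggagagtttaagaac
Bub1: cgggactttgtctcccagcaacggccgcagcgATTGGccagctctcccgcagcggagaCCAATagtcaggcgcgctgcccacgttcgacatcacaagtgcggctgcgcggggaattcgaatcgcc
Nuf2: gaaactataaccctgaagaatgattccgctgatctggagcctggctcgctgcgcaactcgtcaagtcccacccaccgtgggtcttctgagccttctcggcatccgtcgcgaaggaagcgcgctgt
Kif23: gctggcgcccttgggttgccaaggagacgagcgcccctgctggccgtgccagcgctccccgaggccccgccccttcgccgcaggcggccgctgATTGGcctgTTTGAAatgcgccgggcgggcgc
Espl1: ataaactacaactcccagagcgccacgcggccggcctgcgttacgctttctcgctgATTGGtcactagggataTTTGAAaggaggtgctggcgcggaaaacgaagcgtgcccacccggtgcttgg
Cenpa: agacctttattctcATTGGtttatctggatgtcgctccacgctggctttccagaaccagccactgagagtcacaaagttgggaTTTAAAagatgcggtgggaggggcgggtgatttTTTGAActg

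The promoter table had an entry for 36 of the 44 genes, with 38 promoters in all. In the 300 bases from 250 before to 50 after the start, TTTGAA or TTTAAA on either strand stood in 84.2% of the 38 member promoters, against 27.6% of all 32851 promoters of the table. A CCAAT box stood in 73.7% of member promoters and in 37.4% of all. Between 100 before and 50 after the start the shares were 76.3% of member promoters and 12.8% of all for the CHR element, and 63.2% and 23.4% for the CCAAT box. Of the 48 CHR matches in member promoters, 70.8% lay within 50 bases of the start. CCAAT matches lay farther upstream, with a median at position -71 against -16 for CHR matches. Matches are letters in a window and not measured binding.

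**Figure D1:**
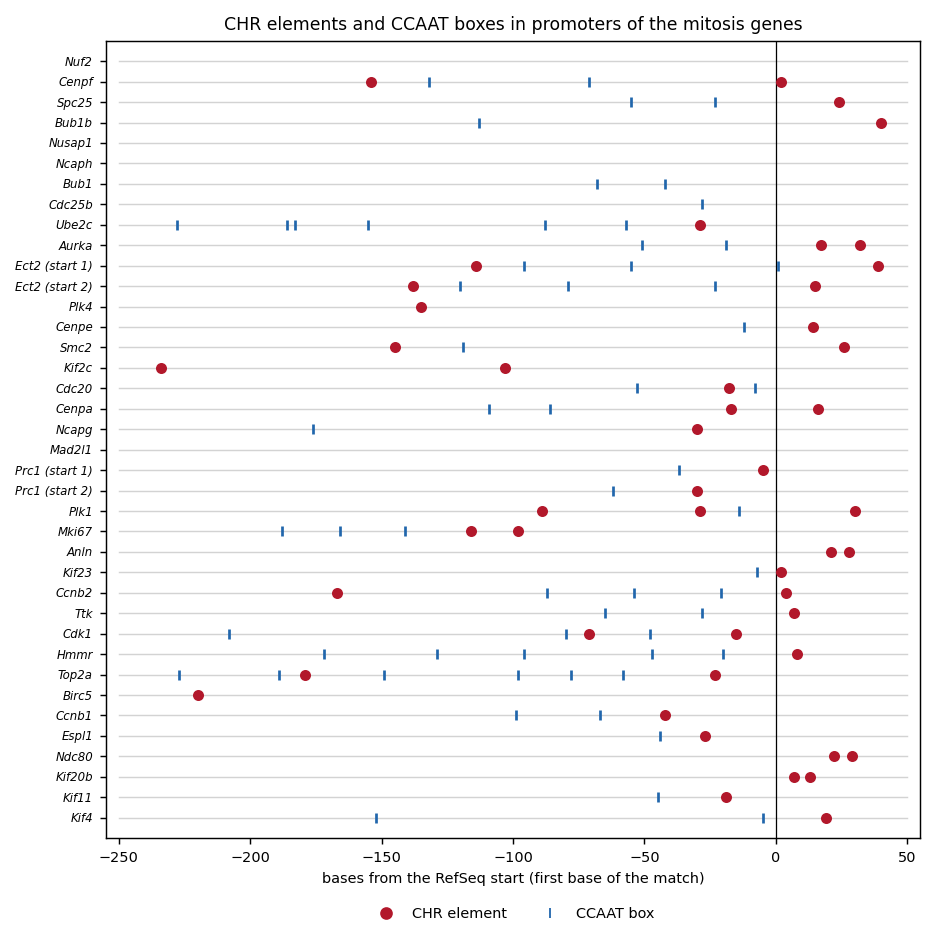
Matches to the CHR element (circles) and CCAAT box (bars) in the 38 promoters of 36 mitosis genes, by distance in bases from the RefSeq start. Most circles lie within 50 bases of the start and most bars upstream of them, while Nuf2, Nusap1, Ncaph and Mad2l1 have neither.

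Levels below are CPM, read counts relative to the library total in the usual unit, listed for replicates 1, 2 and 3. Library totals ran from 16769929 to 22928961 counts, so that 3 counts equalled 0.131 to 0.179 CPM. Log2 fold changes are given ± SE from edgeR's quasi-likelihood test with Benjamini-Hochberg adjustment over all genes tested, and a gene was called at an adjusted p under 0.05. The test rescaled libraries by TMM, so a fold can differ from a ratio of CPM. In the ILC2 comparison, library totals in place of TMM moved the median gene by -0.16 on the log2 scale.

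By most lineage markers the cells matched their labels. All 15 eosinophil markers were lower in ILC2s with eosinophils than in eosinophils with ILC2s. Of 16 ILC2 and lymphoid markers, 14 were higher and 2 lower. Ptpn22 and Ltb averaged 165 and 218 CPM in eosinophils with ILC2s, against 99.8 and 115 CPM in ILC2s with eosinophils. Csf1r and Ighm, listed as monocyte and B cell markers, averaged 411 and 206 CPM in eosinophils with ILC2s. Gata3, the lineage factor of ILC2s, averaged 788 CPM in ILC2s with eosinophils, 935 CPM in ILC2s alone, 0.269 CPM in eosinophils with ILC2s and 1.22 CPM in eosinophils alone. Siglecf, an eosinophil surface lectin, averaged 0.288, 0.286, 1171.7 and 1148.6 CPM in the same order. Among the eosinophil libraries cultured alone, replicate 2 stood apart most: over genes, its chi-square per degree of freedom was 13.9 against replicate 1 and 19.5 against replicate 3, where other pairs of a group gave 2.57 to 6.74.

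The summed level of the 44 genes was 5590.5, 5207.5 and 4825.1 CPM in ILC2s with eosinophils, against 912, 919 and 926 CPM in ILC2s alone. It was 212, 217 and 215 CPM in eosinophils with ILC2s, against 201, 220 and 193 CPM in eosinophils alone. The ILC2 groups stood far apart and the eosinophil groups overlapped. All 44 genes were over 1 CPM in each ILC2 library.

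ILC2s with eosinophils carried more RNA of every mitosis gene than ILC2s alone. All 44 rose, by a median of 2.99 on the log2 scale, and in none did the libraries of the groups overlap. The smallest rise was that of Cdc25b, at 1.40-fold, and the largest that of Bub1, at 18.3-fold. Over the 44 genes the log2 rise had a rank correlation of -0.681 with the CPM in ILC2s alone, so genes with lower levels there tended to rise more. Both values use the libraries of ILC2s alone and are linked for that reason, and no test was made. Adjusted p ran from 7.2e-29 for Top2a to 3.9e-11 for Cdc25b. Of all 14438 genes tested, 36.8% were called higher and 35.6% lower, 38.0% lay wholly above the other group with no overlap, and the median log2 change was 0.00. Changes of this size were rarer: 43, 39 and 22 of the 44 genes were higher by over 2-fold, 4-fold and 8-fold, against 14.0%, 5.55% and 2.68% of all genes. A larger share of dividing cells and more of these transcripts per cell cannot be told apart in bulk RNA.

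**Figure D2:**
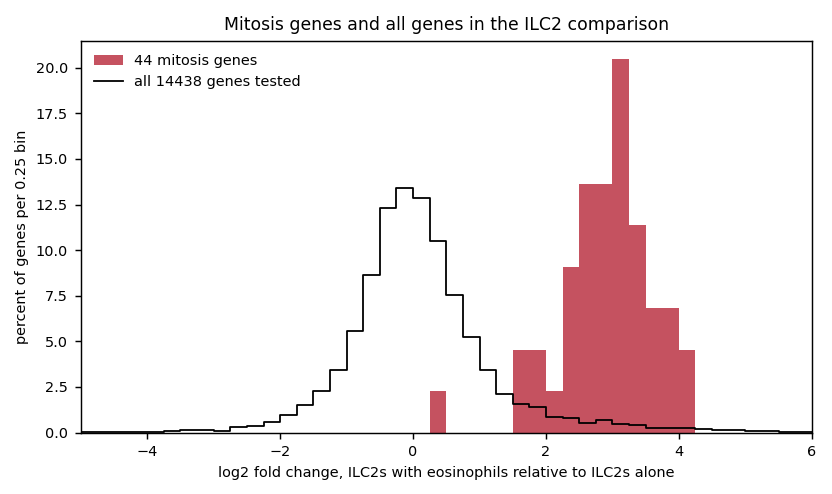
Percent of genes per bin of log2 fold change between ILC2s with eosinophils and ILC2s alone, for the 44 mitosis genes (bars) and all 14438 genes tested (line). The median is 2.99 for the mitosis genes, with Cdc25b apart at 0.48, and 0.00 for all genes.

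Among the regulators of entry, Cdk1, the kinase that drives mitosis, stood at 97.7, 90.7 and 92.8 CPM in ILC2s with eosinophils, against 9.54, 7.26 and 6.45 CPM in ILC2s alone. It rose by 3.77 ± 0.084 on the log2 scale. Its cyclin partners rose with it, Ccna2 by 3.68 ± 0.067, Ccnb1 by 2.97 ± 0.081 and Ccnb2 by 2.84 ± 0.068. Plk1, the kinase that helps to activate the cyclin B complex, had 84.1, 72.0 and 70.4 CPM in ILC2s with eosinophils, against 10.7, 12.0 and 8.85 CPM in ILC2s alone. Foxm1, the transcription factor of late cell cycle genes, rose by 2.79 ± 0.087. The CDC25 phosphatases differed from each other. Cdc25c rose by 2.97 ± 0.16 from a low level, at 13.7, 12.7 and 13.2 CPM in ILC2s with eosinophils, against 1.49, 1.99 and 2.09 CPM in ILC2s alone. Cdc25b, which acts earlier, at the centrosome, had 150, 150 and 138 CPM in ILC2s with eosinophils, against 114, 114 and 121 CPM in ILC2s alone, a rise of 0.48 ± 0.043. Per kilobase of exon its level of 31.2 CPM per kb in ILC2s alone was the highest of the 44 genes there.

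Genes of chromosome structure held 34.4% of the summed level in ILC2s with eosinophils and 28.1% in ILC2s alone. Mki67, which encodes the Ki-67 protein that coats mitotic chromosomes, had 867, 796 and 720 CPM in ILC2s with eosinophils, against 137, 130 and 133 CPM in ILC2s alone, a 6.64-fold rise. Top2a, the topoisomerase that untangles sister DNA, had 730, 670 and 617 CPM in ILC2s with eosinophils, against 79.0, 80.1 and 79.1 CPM in ILC2s alone, a 9.43-fold rise. The condensin genes also rose. Smc2, a subunit of both condensins, rose by 2.74 ± 0.055, and the condensin I subunits Ncapg and Ncaph by 3.12 ± 0.077 and 3.50 ± 0.080.

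In the spindle group, Kif11, the kinesin that pushes the poles apart, had 210, 188 and 180 CPM in ILC2s with eosinophils, against 24.0, 20.5 and 21.2 CPM in ILC2s alone. Aurka, the spindle pole kinase, rose by 3.31 ± 0.085 and its activator Tpx2 by 2.72 ± 0.065. Nusap1 and Hmmr, which bind spindle microtubules, rose by 3.09 ± 0.062 and 3.08 ± 0.077. Plk4, the kinase that starts centriole duplication and so acts before mitosis, rose least of these 6, by 1.97 ± 0.083.

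The chromosomal passenger complex corrects faulty attachments and later guides cytokinesis, and its genes rose unequally. Its kinase Aurkb had 77.6, 80.6 and 65.5 CPM in ILC2s with eosinophils, against 5.72, 5.73 and 6.89 CPM in ILC2s alone. Birc5, which encodes survivin, had 93.7, 91.9 and 81.7 CPM in ILC2s with eosinophils, against 6.38, 5.56 and 5.50 CPM in ILC2s alone. The scaffold Incenp had 170, 162 and 148 CPM in ILC2s with eosinophils, against 54.9, 57.2 and 53.5 CPM in ILC2s alone. The rises were 13.4-fold, 17.1-fold and 3.23-fold. Per kilobase of exon, Aurkb, Birc5 and Incenp stood at levels of 25.3, 26.2 and 37.0 CPM per kb in ILC2s with eosinophils, against 2.08, 1.71 and 12.7 CPM per kb in ILC2s alone. The highest was thus 1.46 times the lowest in ILC2s with eosinophils and 7.46 times in ILC2s alone, with no test of that difference.

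At the kinetochore, the 4 genes of the NDC80 complex, which grips microtubules, all rose. Nuf2 had 59.5, 56.3 and 52.8 CPM in ILC2s with eosinophils, against 4.23, 4.65 and 4.45 CPM in ILC2s alone. Nuf2 rose by 3.81 ± 0.091, Spc24 by 3.97 ± 0.12, Spc25 by 3.37 ± 0.12 and Ndc80 by 2.68 ± 0.083. Their levels per kilobase spanned 2.06 times in ILC2s with eosinophils and 1.85 times in ILC2s alone. Kif2c, a kinesin that takes microtubules apart, rose by 3.19 ± 0.099, the motor Cenpe by 2.38 ± 0.065 and the kinetochore protein Cenpf by 2.59 ± 0.055. Cenpa, the histone H3 variant that marks centromeres, had 124, 120 and 118 CPM in ILC2s with eosinophils, against 37.6, 41.2 and 38.9 CPM in ILC2s alone, and its rise of 1.78 ± 0.050 was the smallest of the group.

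Of the checkpoint genes, Bub1, a kinase of unattached kinetochores, had 61.2, 52.1 and 50.2 CPM in ILC2s with eosinophils, against 1.61, 3.91 and 4.14 CPM in ILC2s alone. Replicate 1 of ILC2s alone was the lowest, and the groups did not overlap. Ttk, the kinase that opens checkpoint signalling, rose by 3.49 ± 0.14, Bub1b, which encodes BUBR1, by 3.10 ± 0.070, and Mad2l1, which encodes MAD2, by 2.07 ± 0.065. Their target and the genes of anaphase rose too. Cdc20, which activates the anaphase-promoting complex, had 106, 103 and 90.4 CPM in ILC2s with eosinophils, against 18.8, 21.9 and 18.2 CPM in ILC2s alone. Ube2c, the ubiquitin-conjugating enzyme of that complex, rose by 3.02 ± 0.063, and Espl1, which encodes separase, by 3.31 ± 0.073.

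The cytokinesis group had the lowest median of the 8 roles, 2.50 on the log2 scale, against 3.75 for the passenger complex, the highest. Kif4, which shapes the central spindle, rose by 3.07 ± 0.10, Kif20a by 2.90 ± 0.082 and Kif23, the kinesin of centralspindlin, by 2.76 ± 0.073. Ect2, the exchange factor that switches on RhoA at the cell equator, rose by 2.50 ± 0.079, the microtubule bundler Prc1 by 2.40 ± 0.056, the cortical scaffold Anln by 2.33 ± 0.098 and Kif20b by 1.52 ± 0.065. Kif23 had 92.6, 83.1 and 76.1 CPM in ILC2s with eosinophils, against 14.1, 13.4 and 13.9 CPM in ILC2s alone.

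**Figure D3:**
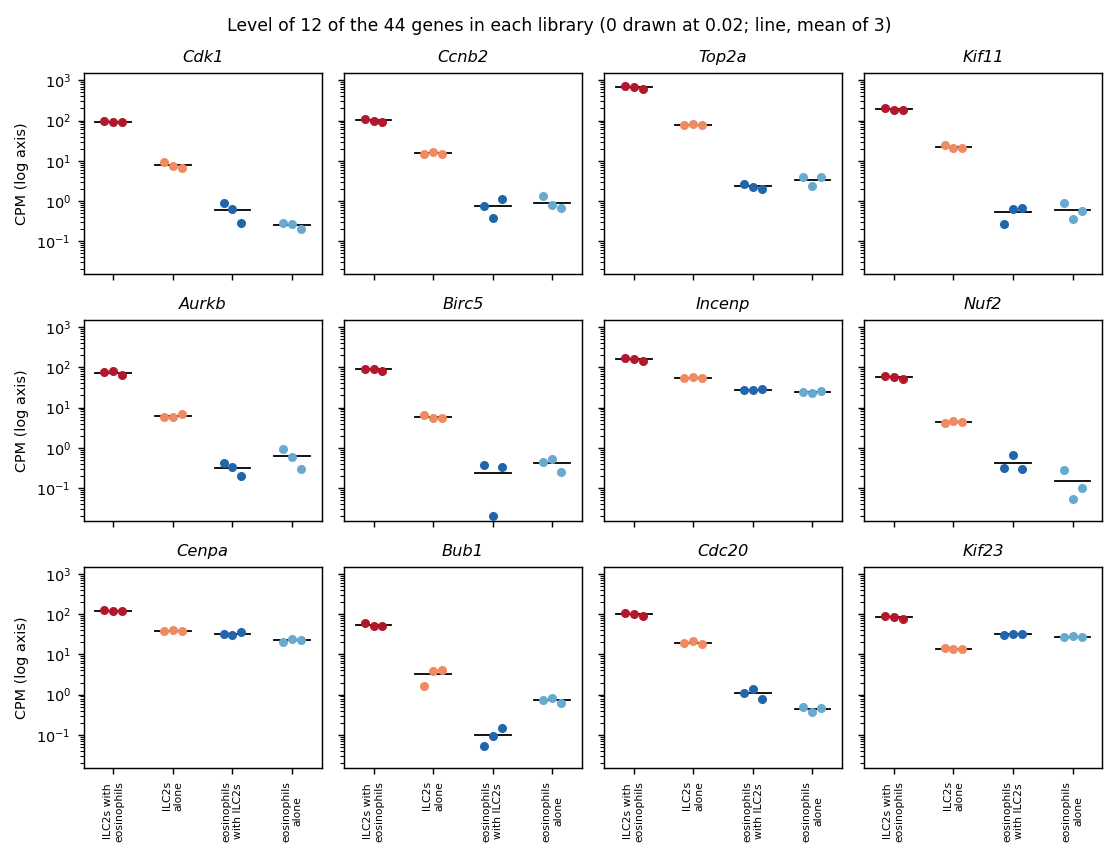
CPM on a log axis of 12 mitosis genes in each of the 12 libraries, with a line at each group mean. In ILC2s with eosinophils every gene lies above its level in ILC2s alone, while Incenp, Cenpa and Kif23 stay above 20 CPM in all eosinophil libraries.

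Other genes of cell division were read from the same fit. Of 161 further mitosis genes, 160 were tested, 136 were higher, 10 lower and 14 did not pass, with a median log2 change of 1.25. All 40 genes of S phase were higher, with a median of 2.59. Among the further mitosis genes, Kntc1, a kinetochore protein, rose by 4.88 ± 0.11, and Cdca5 and Esco2, which act on cohesin, by 4.51 ± 0.16 and 4.29 ± 0.14. Iqgap3, a scaffold protein, rose by 4.50 ± 0.19. Pttg1, which encodes securin, the inhibitor of separase, fell by 0.69 ± 0.085, to 20.7 ± 1.35 CPM in ILC2s with eosinophils, against 33.3 ± 3.70 CPM in ILC2s alone (TMM-scaled, SD, n = 3 each). Numa1, a spindle pole protein also used in resting nuclei, fell by 0.65 ± 0.037, Tacc1 by 0.42 ± 0.040 and Haus3, of the augmin complex, by 0.38 ± 0.053.

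Markers of other cells moved in both directions, here given by the summed CPM of each list and by single genes. The 15 eosinophil markers summed to 4.92 to 6.34 CPM in ILC2s with eosinophils, with Ear2 and Prg3 at 0, and to 4.14 to 5.13 CPM in ILC2s alone, with Prg3 at 0. The same list summed to 10083.4 to 10631.4 CPM in eosinophils alone. The neutrophil and precursor list was higher at a low level, at 2.68 to 8.06 CPM with 8 of 10 genes detected in ILC2s with eosinophils, against 0.0436 to 0.284 CPM in ILC2s alone, with S100a8 and S100a9 at 0 in both. Mpo, a granule enzyme of myeloid precursors, had 97, 27 and 47 counts in ILC2s with eosinophils, against 0, 2 and 1 in ILC2s alone, and Elane 31, 11 and 9 against 0 in each library of ILC2s alone. The erythroid list summed to 15.2 to 19.5 CPM in ILC2s with eosinophils, mostly Hba-a1, against 1.19 to 2.09 CPM in ILC2s alone, with Hbb-bs at 0 in both. The T cell, B cell, basophil, progenitor and monocyte lists had lower sums in ILC2s with eosinophils, though of the tested genes 2 were higher and 1 lower in the T cell list and in the progenitor list. The T cell list summed to 154 to 167 CPM in ILC2s with eosinophils, against 201 to 212 CPM in ILC2s alone, and the B cell list to 58.2 to 66 against 157 to 173. The basophil and mast cell list, mostly Kit, summed to 57 to 69.1 CPM in ILC2s with eosinophils, against 162 to 179 CPM in ILC2s alone, and the progenitor list to 115 to 123 against 161 to 177. Kit was the tested progenitor gene that was lower, at a mean of 61.8 CPM in ILC2s with eosinophils and 167 CPM in ILC2s alone. Myb, a transcription factor of blood progenitors, had 1154, 1110 and 987 counts in ILC2s with eosinophils, against 10, 3 and 5 in ILC2s alone, and the progenitor surface protein Cd34 had 93, 97 and 93 counts against 0, 3 and 0. The monocyte list, nearly all Ccr2, summed to 462 to 562 CPM in ILC2s with eosinophils, against 990 to 1030.6 CPM in ILC2s alone. The ILC2 list was 5356.5 to 5502.0 CPM in ILC2s with eosinophils and 7772.0 to 7906.1 CPM in ILC2s alone. The part of the progenitor, neutrophil, erythroid and other lists in the rises was not tested.

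Eosinophils with ILC2s differed little from eosinophils alone in these genes. For 12 genes there were too few counts for the test, among them Cdk1, Ccnb1, Aurkb, Birc5 and Ube2c. Of the 32 tested, 2 were higher and 1 lower, against 11.4% higher and 13.5% lower among all 13109 genes tested, and the median log2 change was -0.08, against 0.00 over all genes. The summed level averaged 215 ± 2.91 CPM in eosinophils with ILC2s and 205 ± 14.0 CPM in eosinophils alone (SD, n = 3 each).

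Cenpa was the higher gene with the most counts, at 31.9, 30.1 and 36.9 CPM in eosinophils with ILC2s, against 20.5, 24.5 and 22.7 CPM in eosinophils alone. The groups did not overlap, and the log2 change was 0.49 ± 0.10 (adjusted p = 0.0025). Cdc20 had 1.10, 1.35 and 0.777 CPM in eosinophils with ILC2s, against 0.507, 0.366 and 0.457 CPM in eosinophils alone, a change of 1.21 ± 0.40 (adjusted p = 0.043). That call was lost on leaving out any of the 6 libraries, with adjusted p of 0.051 to 0.18, and also under DESeq2 at 0.097, with no filter on low counts at 0.08 and under limma-voom at 0.054. Bub1, the gene that rose most in ILC2s, was lower, with 1, 2 and 3 counts in eosinophils with ILC2s, against 13, 16 and 12 counts in eosinophils alone (adjusted p = 0.0018). The log2 change was -2.85 ± 0.55 and kept its call in all 13 alternatives that tested it.

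Several genes with more counts did not pass. Mki67 had 35.2, 42.9 and 36.2 CPM in eosinophils with ILC2s, against 40.4, 57.0 and 37.9 CPM in eosinophils alone, a log2 change of -0.30 ± 0.13 (adjusted p = 0.12). It passed without replicate 3 of eosinophils alone, at -0.40 (adjusted p = 0.032), and with no filter on low counts, at -0.29 (adjusted p = 0.009). Top2a had 2.58, 2.26 and 2.04 CPM in eosinophils with ILC2s, against 3.89, 2.35 and 3.91 CPM in eosinophils alone, and its change of -0.62 ± 0.25 (adjusted p = 0.096) passed without replicate 2 of eosinophils alone, at -0.83 (adjusted p = 0.016). Top2a also passed with all 12 libraries in the fit, at -0.59 (adjusted p = 0.018). Kif20a passed without replicate 3 of eosinophils alone, at -0.81 (adjusted p = 0.043), and otherwise stood at -0.57 ± 0.29 (adjusted p = 0.18). Kif23 had 30.4, 31.9 and 32.4 CPM in eosinophils with ILC2s, against 26.4, 28.8 and 27.0 CPM in eosinophils alone, and its change of 0.15 ± 0.077 did not pass (adjusted p = 0.20). On the scaled values 3 of the 32 genes, Cdc20, Cenpa and Kif23, lay wholly above the other group and 1, Bub1, wholly below, against 19.1% and 19.8% of all genes.

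Of the further mitosis genes, 136 were tested in eosinophils, 12 were higher and 9 lower. These shares of 8.82% and 6.62% were below the 11.4% and 13.5% of all genes. Racgap1, the partner of Kif23 in centralspindlin, rose by 0.73 ± 0.14, Depdc1b by 0.80 ± 0.18, Lmnb1, which encodes lamin B1, by 0.68 ± 0.081 and Ckap2l by 1.32 ± 0.38. Tuba1b, an alpha tubulin, fell by 0.94 ± 0.076, the kinase Nek6 by 0.73 ± 0.058, Sept11, a septin, by 0.68 ± 0.073 and the centromere gene Cenph by 1.75 ± 0.52. Of 37 S phase genes tested, 1 was higher and 3 lower, or 2.7% and 8.11%, also below the shares of all genes. Beside these values, the progenitor list was 121 to 140 CPM in eosinophils with ILC2s, against 76.1 to 82.3 CPM in eosinophils alone. Its genes moved in both directions, with 2 higher and 1 lower of 5 tested. Cd34 averaged 48.6 CPM in eosinophils with ILC2s, against 5.01 CPM in eosinophils alone, and Myb 29.5 against 14.4. Kit fell, with 67, 54 and 40 counts in eosinophils with ILC2s, against 206, 246 and 199 in eosinophils alone. Gfi1b stayed level, at 48.1 CPM in eosinophils with ILC2s and 48.6 CPM in eosinophils alone. The neutrophil list was 8.94 to 9.86 CPM in eosinophils with ILC2s, against 13.5 to 18.4 CPM in eosinophils alone, and the basophil list 98.2 to 109 against 196 to 221. The part of these lists in the changes was not tested.

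**Figure D4:**
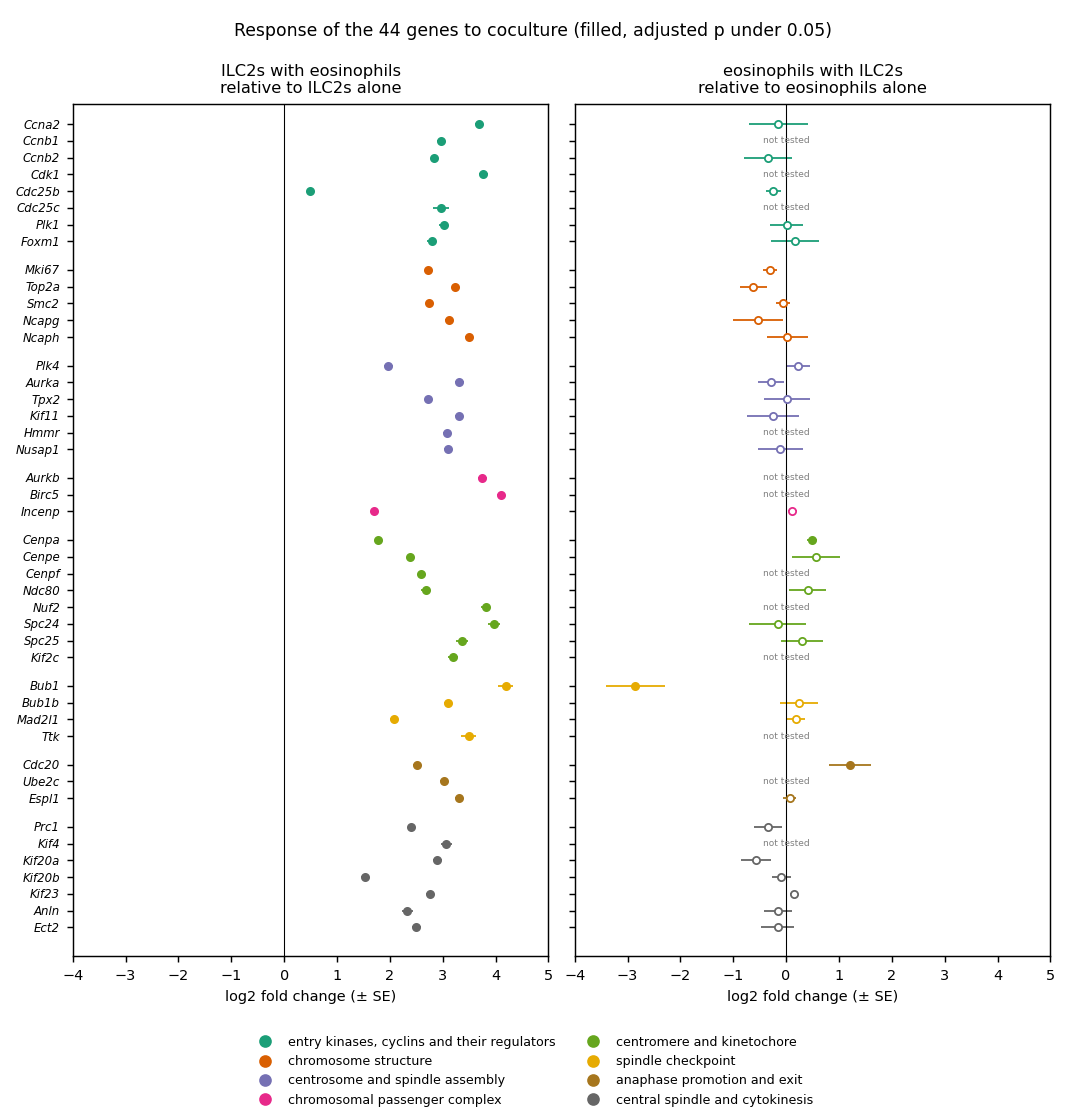
Log2 fold change ± SE of each gene on coculture, in ILC2s (left) and eosinophils (right), ordered by role, with filled circles for adjusted p under 0.05. All 44 ILC2 values are filled and above 0, and 3 of 32 eosinophil values are filled, those of Cenpa, Cdc20 and Bub1.

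The responses of the cell types were compared as the change in ILC2s minus the change in eosinophils, in a fit of all 12 libraries. This difference uses the same libraries as the comparisons above. The 12 genes with too few counts to test in eosinophils, Birc5 and Aurkb among them, entered this fit through their ILC2 counts. For those genes the eosinophil part of the difference rests on very few counts. The difference was above 0 for 42 of the 44 genes and below 0 for none at an adjusted p under 0.05. Its median was 3.00. Of all 15745 genes tested, 26.8% were higher and 24.8% lower. The largest was that of Bub1, at 7.04 ± 0.65, followed by Birc5 at 4.93 ± 0.62 and Aurkb at 4.71 ± 0.49. The smallest called were Cdc25b at 0.71 ± 0.13, Cenpa at 1.27 ± 0.11 and Cdc20 at 1.27 ± 0.38. Cdc25c (2.33 ± 1.01, adjusted p = 0.058) and Hmmr (0.90 ± 1.48, adjusted p = 0.65) did not pass, and Hmmr had 11 counts over the 3 libraries of eosinophils with ILC2s and 2 over those of eosinophils alone. Cdc25c passed under DESeq2 (2.28, adjusted p = 0.032), under limma-voom (2.15, adjusted p = 0.024) and without replicate 2 of eosinophils alone (2.89, adjusted p = 0.018). Nuf2 lost its call without replicate 1 of eosinophils alone (1.45, adjusted p = 0.26), and Kif2c without replicate 2 (2.72, adjusted p = 0.054).

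Cells cultured alone also differed by cell type. ILC2s alone exceeded eosinophils alone in 42 of the 44 genes and were lower in 2, against 40.8% higher and 39.9% lower among 14525 genes tested, with a median of 3.13 on the log2 scale. Library totals in place of TMM would move the median gene by 0.57 in this comparison. The 12 genes with too few counts to test in eosinophils, Cenpf and Hmmr among them, entered this fit through their ILC2 counts. Cenpf differed by 5.94 ± 0.21, at 29.3, 31.3 and 28.0 CPM in ILC2s alone, against 0.507, 0.314 and 0.152 CPM in eosinophils alone. Hmmr had 579 counts in the ILC2 libraries and 2 in the eosinophil libraries, a ratio of 286 per library total with an exact 95% interval, for counting error only, of 78.7 to 2363.

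The lower pair were Kif23 and Espl1. Kif23 had 14.1, 13.4 and 13.9 CPM in ILC2s alone, against 26.4, 28.8 and 27.0 CPM in eosinophils alone, a difference of -1.56 ± 0.091 (adjusted p = 4.2e-10). Espl1 had 9.84, 10.3 and 10.6 CPM in ILC2s alone, against 14.2, 17.2 and 12.1 CPM in eosinophils alone, a difference of -1.06 ± 0.13 (adjusted p = 3.3e-06). Neither pair of groups overlapped, but 40.5% of all genes lay wholly below in this comparison and 41.8% wholly above. Cenpa (0.23 ± 0.088, adjusted p = 0.028) and Anln (0.50 ± 0.21, adjusted p = 0.040) were called higher in ILC2s, but Cenpa lost its call without replicate 2 or 3 of ILC2s alone or replicate 1 of eosinophils alone, with adjusted p of 0.058 to 0.15. Anln lost it without replicate 2 or 3 of either group, with adjusted p of 0.083 to 0.17. Of the further mitosis genes, 84 were higher and 53 lower of 160 tested in ILC2s alone, and of 40 S phase genes 19 were higher and 11 lower. The shares were 52.5% and 33.1% for the further genes and 47.5% and 27.5% for S phase, against 40.8% and 39.9% of all genes. Nek6, the gene farthest below 0, averaged 8.76 ± 0.927 CPM in ILC2s alone and 150 ± 2.97 CPM in eosinophils alone (TMM-scaled, SD, n = 3 each). Depdc1a had 185 counts in ILC2s alone and 0 in eosinophils alone, at least 60.8-fold higher by library totals if 3 counts over the group are taken as the floor.

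After coculture all 44 genes were higher in ILC2s with eosinophils than in eosinophils with ILC2s, where 43.6% of 14634 genes were higher and 40.5% lower. The 12 genes with too few counts to test in eosinophils, Ube2c and Cenpf among them, entered this fit through their ILC2 counts. Their direction was thus nearly fixed by the filter. The median difference was 6.13 on the log2 scale. It ran from 1.01 ± 0.068 for Kif23 to 9.21 for both Ube2c (± 0.15) and Cenpf (± 0.14). Ube2c and Cenpf had only 8 and 12 counts over the 3 libraries of eosinophils with ILC2s. Their SE, taken from the F test, do not show the counting error of so few counts. Under alternatives the Ube2c difference ran from 8.87 to 9.97. Library totals in place of TMM would move the median gene by 0.40. Of the further mitosis genes 122 were higher and 24 lower of 160 tested, and all 40 S phase genes were higher. The lower ones included Pttg1, at 17.1 ± 1.13 CPM in ILC2s with eosinophils and 33.8 ± 4.33 CPM in eosinophils with ILC2s (TMM-scaled, SD, n = 3 each), a difference of -0.98 ± 0.092.

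As a share of the level in ILC2s with eosinophils, the level in eosinophils with ILC2s had a median of 1.08% over the 44 genes. It was under 1% for 21 genes, from 1 to 5% for 13 and at least 5% for 10. The highest were Kif23 at 37.6%, Cenpa at 27.3%, Incenp at 17.5% and Espl1 at 17.3%, with Plk4 at 10.4%. The lowest were Ube2c at 0.121% and Cenpf at 0.125%. For cells cultured alone the median was 7.73%, with Kif23 at 199% and Espl1 at 141%. Mki67, Cenpa, Kif23, Incenp, Espl1 and Smc2 together held 74.3% of the summed level in eosinophils with ILC2s and 72.0% in eosinophils alone. The 6 genes with the most CPM, not corrected for length, held 41.4% in ILC2s with eosinophils and 49.3% in ILC2s alone.

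In the passenger complex this gave eosinophils an unequal pattern. The scaffold Incenp had 27.9, 27.1 and 28.9 CPM in eosinophils with ILC2s, against 24.6, 23.4 and 26.3 CPM in eosinophils alone. Aurkb had 0.421, 0.336 and 0.194 CPM in eosinophils with ILC2s, against 0.958, 0.575 and 0.305 CPM in eosinophils alone. Birc5 was at 7, 0 and 7 counts in eosinophils with ILC2s, against 8, 10 and 5 counts in eosinophils alone. Per kilobase the highest of the 3 genes was 93.2 times the lowest in eosinophils with ILC2s and 47.6 times in eosinophils alone. Smc2, another of the genes that led in eosinophils, stood at 2.39 CPM per kb in both eosinophil groups, while Ncapg, its partner in condensin I, was at 0.0707 CPM per kb in eosinophils with ILC2s and 0.0994 CPM per kb in eosinophils alone.

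RNA of ILC2s in the sorted eosinophils can be set beside these shares. Of 16 ILC2 and lymphoid markers, 8 were kept. Each had at least 10 CPM in ILC2s with eosinophils and at most 1% of that level in eosinophils alone. A low share in eosinophils alone was thus fixed by this choice. The 8 markers, Gata3, Thy1, Rora and 5 others, stood at a median of 0.0982%, 0.0757% and 0.0465% of their cocultured ILC2 level in the 3 libraries of eosinophils with ILC2s. In eosinophils alone, which shared no culture with ILC2s, the same median was 0.192%, 0.118% and 0.0933%. All 44 mitosis genes lay above the mean of 0.0735% in eosinophils with ILC2s, a share that would amount to 3.83 CPM of their summed 215 CPM. Since eosinophils alone reached marker shares of this size without ILC2s, 0.0735% is not a measure of ILC2 RNA. Ube2c at 0.121%, Cenpf at 0.125% and Bub1 at 0.18% lay within the marker range of eosinophils alone. Among the markers left out, Il7r, Ets1 and Ltb averaged 3.77, 65.1 and 218 CPM in eosinophils with ILC2s. In ILC2s with eosinophils they averaged 267, 379 and 115 CPM. The amount of ILC2 RNA in the eosinophil libraries was not tested otherwise.

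**Figure D5:**
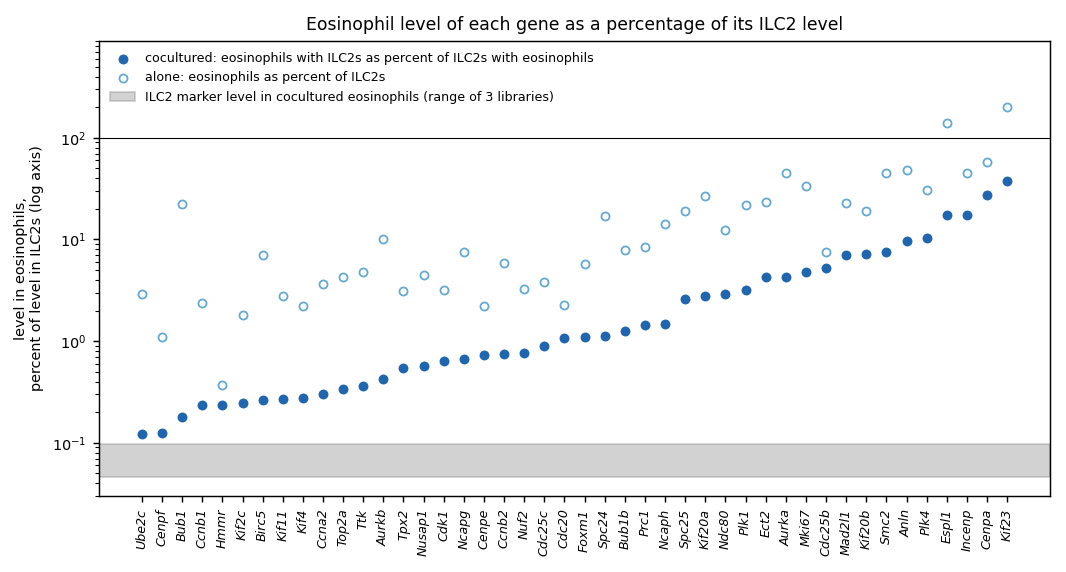
Level of each mitosis gene in eosinophils as a percentage of its level in ILC2s, on a log axis, for cocultured cells (filled) and cells alone (open), with the range of the ILC2 marker share shaded. Filled points run from 0.121% for Ube2c to 37.6% for Kif23, and Kif23 and Espl1 alone pass 100%, in cells cultured alone.

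The CHR element was set beside these levels last. Of the 36 genes with a promoter entry, 27 held TTTGAA or TTTAAA between 100 before and 50 after the start, and their median log2 rise in ILC2s was 2.97, from 1.52 to 3.77. The 9 without a match in that window, which included Bub1, Nuf2 and Birc5, had a median of 3.19, from 0.48 to 4.19. Of these 9, Birc5, Plk4 and Kif2c held a match farther upstream, at -220, at -135, and at -234 and -103. Other forms of the element were not searched, so the 9 may hold one. For Kif2c, one of the 9, the promoter entry at chr4:117178723-117179022 lies inside the gene, which runs from 117159639 to 117182639 on the minus strand. The median eosinophil level relative to ILC2s after coculture was 1.27% with a match in that window and 0.759% without, given as a description with no test.

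Exons of 13 of the 44 genes overlap another gene in the GENCODE M21 annotation, by 1.35 to 29.3% of their exon bases. Over 10% was shared for Ccna2, Cdc25c, Ncapg, Ube2c, Prc1, Kif4 and Kif20a. The strand setting of the counting is not given in the sources used here, so reads of such neighbours may not be told apart. Ccnb1, Ccnb2 and Kif4 also have pseudogene copies, and their counts are uncertain to that extent.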

How the data were processed

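RNA was sequenced from 12 libraries, 3 for each of 4 groups taken from the labels. The authors deposited whole read counts per gene that had not been normalized. Per the submitters' processing notes, the tools included Trimmomatic 0.36 for trimming, STAR 2.5.2b, featureCounts (Subread 1.5.2) and bcl2fastq 2.17, on build mm10. Which annotation and strand setting were used, and how multiply mapped reads were counted, is not given in the sources used here. GENCODE M21 gave a symbol for 48970 of the 49315 identifiers and the exon lengths, as the union of all exons of a gene.

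Each comparison was fitted on the whole table with edgeR 4.0.16 on R 4.3.3, using filterByExpr, TMM scaling, the quasi-likelihood F test and Benjamini-Hochberg adjustment, with no covariate. Comparisons of a pair of groups used their 6 libraries, and the difference of responses all 12. The standard error was the log2 fold change divided by the square root of F, and can understate the error where a group has few counts. No pair of replicates agreed within sampling noise, so none was treated as a duplicate. Biological coefficients of variation were 4.71% for the ILC2 comparison and 7.92% for the eosinophil comparison. The scripts were tested on simulated data.

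The 44 genes, the lists of further mitosis, S phase and marker genes, the motifs and the naming rule were chosen with earlier results of these data known. The text names the members, and of the further mitosis genes up to the 4 largest called changes in each direction and coculture comparison. Nek6, Depdc1a and Pttg1 in the cell type comparisons came from the same rule, and were picked from its genes, like the complexes and promoters shown, after their values were seen. Alternatives were DESeq2 1.42.0, limma-voom (limma 3.58.1), other scalings and filters, a replicate block, a 12-library fit and leaving out each library.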

Additional observations from a re-analysis of the deposited data

Results flagged for a closer look

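The response to coculture differed between the cell types, by a test of the difference itself over all 12 libraries, in 42 of the 44 genes, each with the larger change in ILC2s. Of all 15745 genes tested, 26.8% were higher and 24.8% lower. The difference uses the same libraries as the ILC2 comparison. Birc5, Aurkb and others of these genes had too few counts to test in eosinophils by themselves, and entered this fit through their ILC2 counts. On the log2 scale the difference was 7.04 for Bub1, where the ILC2 change was 4.19 and the eosinophil change -2.85, with 1 to 3 counts in each library of eosinophils with ILC2s. It was 4.93 for Birc5 and 4.71 for Aurkb, which had 19 or fewer counts over the 3 libraries of eosinophils with ILC2s. At the low end it was 1.27 for Cenpa, the called gene that rose in both cell types with over 20 CPM in every library, and 0.71 for Cdc25b.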

How the results depend on the processing

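Of 3119 log2 changes of the 44 genes recomputed under alternatives, 3092 kept their side of the threshold, 18 lost a call and 9 gained one. No called change reversed, but 33 uncalled changes took the other sign, 32 of them in the eosinophil comparison. In the ILC2 comparison and between cocultured cells all 616 values each kept direction and call. In eosinophils the members called higher (2) fell to 1 under DESeq2, no filter, a mean of at least 1 CPM and limma-voom, and to 1 on leaving out any library. The members called lower (1) were 2 with no filter, 0 at a mean of at least 1 CPM, 3 in the 12-library fit and 1 to 3 with a library left out. Without replicate 2 of eosinophils alone they were 2, and without its replicate 3 they were 3.

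Deviations of same-numbered libraries correlated at -0.0418 to 0.146 over 12898 genes, the highest between the replicates 2 of the eosinophil groups. The labels state no pairing by replicate number, and correlations over so few libraries cannot exclude one. With the replicate block, 2 members were called lower in eosinophils, the added gene being Mki67 at -0.29 (adjusted p = 0.0047), 19 further mitosis genes higher (12 without the block) and 5 S phase genes lower (3 without), and no other count of listed genes moved by over 1.5 times. The 12-library fit called 22 further mitosis genes higher, 2 S phase genes higher, 5 lower and 2276 genes of all higher (1493 in the 6-library fit). Leaving out a library gave 7 to 16 further mitosis genes higher, 0 to 1 S phase genes higher, 3 to 5 lower, and 948 to 1604 of all genes higher, the lowest without replicate 3 of eosinophils with ILC2s.

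Library totals in place of TMM shifted the balance of calls. In eosinophils 58.0% of all calls were higher (45.7% under TMM), with 2 S phase genes higher. Between cells alone 70.1% were higher (50.5%), with 3664 genes of all lower (5796), 22 further mitosis genes lower (53) and 5 S phase genes lower (11). Between cocultured cells 65.8% were higher (51.8%), with 9 further mitosis genes lower (24). For the difference of responses 39.6% were higher (51.9%), with 19 further mitosis genes lower (11), and in the ILC2 comparison 18 were lower (10). Scaled by TMM over all libraries, the summed level averaged 4879.1, 761, 244 and 232 CPM in ILC2s with eosinophils, ILC2s alone, eosinophils with ILC2s and eosinophils alone. The cause of these changes was not tested. At 17739876 to 20815278 counts per eosinophil library and 16769929 to 22928961 per ILC2 library, 12 of the 44 genes had too few counts to test in eosinophils and 0 in ILC2s.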
